A study of Mus musculus with 6 samples.

Results

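The genes of the cytosolic ribosomal proteins were compared in mouse anterior cingulate cortex (ACC) a month after an early immune challenge. Members were the rows whose symbol starts with Rpl or Rps followed by a digit, together with Rplp0, Rplp1, Rplp2 and Rpsa. Symbols containing -ps (2 rows) and the S6 kinases starting Rps6k (10 rows) were dropped. This gave 83 of the 14250 rows. They were 46 canonical genes of the large subunit, 31 of the small subunit, 5 paralogs (Rps27rt, Rps27l, Rpl22l1, Rpl7l1 and Rpl36al) and Rps19bp1, a gene for a protein that binds Rps19 and is not a ribosomal protein. All 83 passed the low-count filter, and no member had fewer than 115 counts in any library.

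Polyadenylated RNA was sequenced from 6 C57BL/6 mice, 1 mouse per library, with no genetic alteration named in the labels. A group of 3 received LPS (lipopolysaccharide, a bacterial endotoxin) by intraperitoneal injection at 50 µg per kg on postnatal day 14, and 3 received pyrogen-free saline in the same way. The ACC was cut out of brain slices by hand at postnatal day 45, so neighbouring tissue can be included. Sex, litter and cage are not stated in the sources used here, and the tissue holds many cell types.

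Ribosomal proteins and ribosomal RNA form the large subunit, which joins amino acids, and the small subunit, which reads the messenger RNA. Their messenger RNAs carry a run of pyrimidines at the very start, the TOP motif, through which mTORC1 and the RNA-binding protein Larp1 control their translation as a group. In neurons ribosomes occur in the cell body and in dendrites, where local translation takes part in synaptic plasticity. Ribosomal protein genes have left many processed pseudogenes and retrocopies in mammalian genomes, and reads from such copies are hard to assign.

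A pair of members carried the largest differences between the groups, and their sequences are shown because they bear on how those values can be read. Rps27 (ENSMUSG00000090733) lies at chr3:90212522-90213651 on the minus strand of GRCm38 and its transcript has 4 exons. Rps27rt (ENSMUSG00000050621), its retrogene, lies at chr9:114982366-114982739 on the minus strand and has 1 exon. Both are annotated as protein coding. Their coding sequences of 255 bases, read from the GENCODE M21 transcripts, had 0 differing bases. The capitals mark the 2 bases on each side of the 3 exon junctions of Rps27, which fall after coding bases 6, 115 and 226 and have no counterpart as junctions in Rps27rt.
Rps27 coding sequence: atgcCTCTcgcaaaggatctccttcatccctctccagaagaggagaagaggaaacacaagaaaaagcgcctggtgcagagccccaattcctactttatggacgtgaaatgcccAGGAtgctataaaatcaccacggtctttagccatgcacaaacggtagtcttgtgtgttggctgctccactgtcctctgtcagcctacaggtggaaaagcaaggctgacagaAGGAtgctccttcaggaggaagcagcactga
Rps27rt coding sequence: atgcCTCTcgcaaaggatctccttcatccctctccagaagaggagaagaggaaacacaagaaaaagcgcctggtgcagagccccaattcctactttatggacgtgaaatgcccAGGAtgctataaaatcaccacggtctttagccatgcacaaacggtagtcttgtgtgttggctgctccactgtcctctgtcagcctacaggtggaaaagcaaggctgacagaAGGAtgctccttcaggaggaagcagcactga

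The match ran beyond the coding sequence. Over 341 bases, from position 5 to 345 of the 345-base Rps27 transcript and from position 1 to 341 of the 374-base Rps27rt transcript, the transcripts had 0 mismatches and 0 gap bases. A read that falls within those 341 bases has the same letters whichever gene it came from. The sequence before the genes differs. The following windows run from 30 bases before to 20 bases after the RefSeq start (GRCm38.p6, minus strand, 5′ to 3′), and the capitals mark the 19 bases that both share, which begin at or 1 base after the start.
Rps27, chr3:90213629-90213678: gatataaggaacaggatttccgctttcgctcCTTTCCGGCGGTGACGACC
Rps27rt, chr9:114982720-114982769: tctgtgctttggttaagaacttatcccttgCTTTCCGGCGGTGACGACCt

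No ribosomal protein gene passed the test between LPS and saline mice. The edgeR quasi-likelihood test called 0 of 83 members at an adjusted p of 0.05, against 41 of 14250 rows, or 0.288%. At an unadjusted p under 0.05 it gave 5 members (6.02%), against 7.17% of all rows. Limma-voom also called 0 members, against 0.239% of all rows, and DESeq2 called 2, Rps27 and Rps27rt, against 0.983%. By sign, 41 members were higher and 42 lower in LPS mice. The median log2 change, LPS relative to saline, was -0.00071 over the members and 0.0014 over all rows. In size, the median was 0.03 over the members and 0.08 over all rows. The shares that lay within 0.1 were 73.5% of members and 56.4% of rows. The rows were not matched to the members for level.

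Most members had narrow intervals. The 95% interval of the log2 change lay within 0.25 of 0 for 55 members and within 0.5 of 0 for 72. Standard errors (SE) ran from 0.05 for Rpl4 to 0.91 for Rpl29, with a median of 0.07. Beyond 0.2 in either direction were 10 members, which included all 8 whose libraries varied most within a group. In 7 members (8.43%) the groups did not overlap in CPM (counts scaled by library size), against 13.7% of all rows. LPS lay above saline in 4 of them, which include Rps27rt, Rpl10a and Rpl34, and below in 3, which include Rps27 and Rps29. Each direction held 6.84% of all rows.

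**Figure D1:**
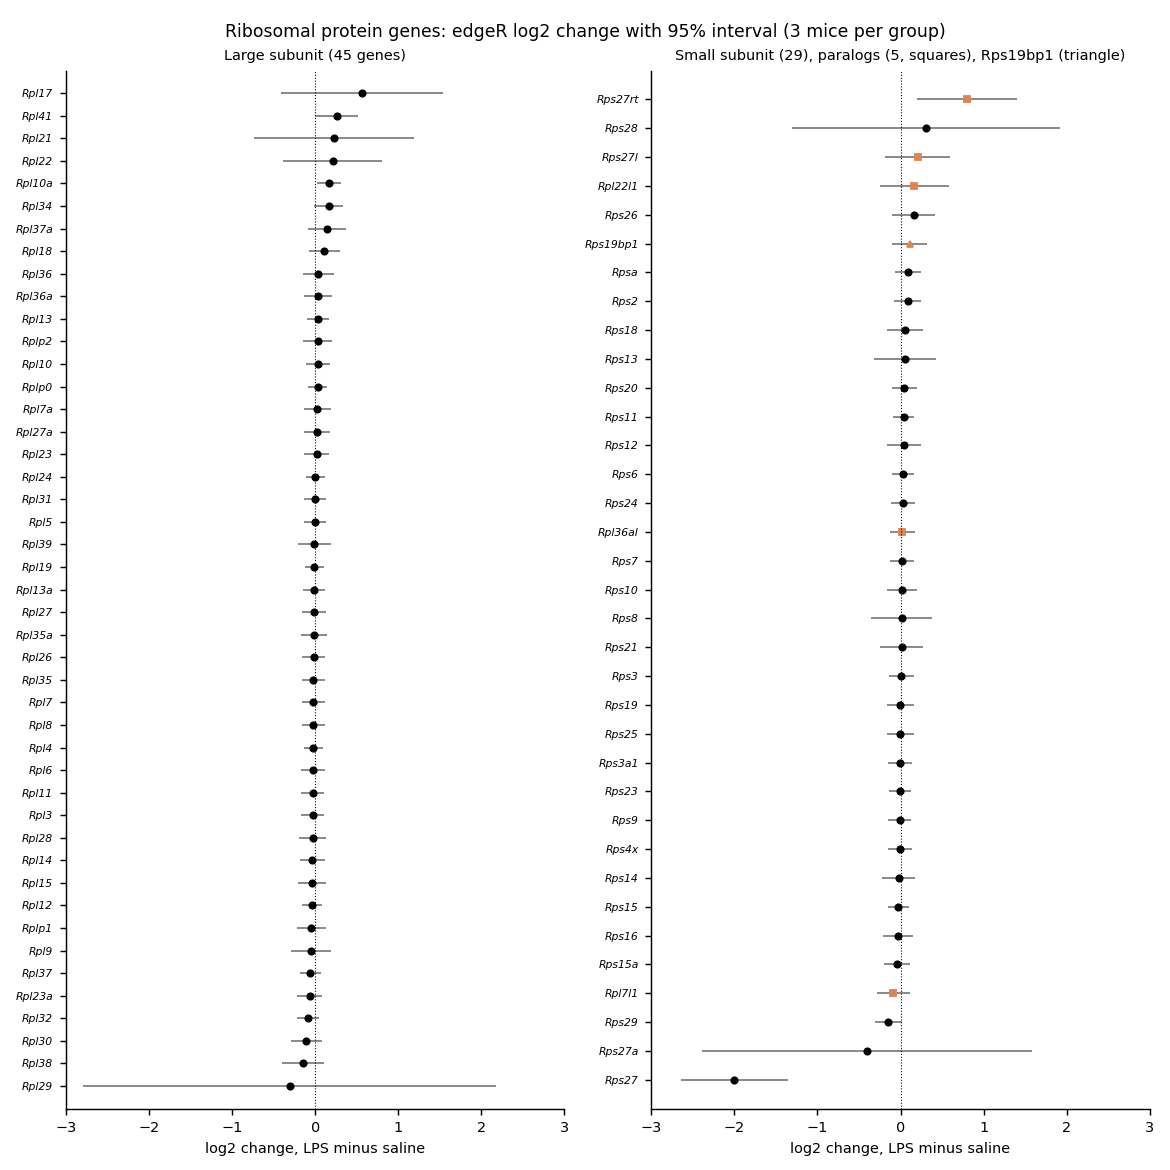
Log2 change (LPS minus saline, x axis) of 80 of the 83 genes (y axis) from edgeR, with 95% intervals and 3 mice per group; circles are canonical subunit genes, squares paralogs and the triangle Rps19bp1. Most points lie near 0 with short intervals, Rps27 lies at -2.0 and Rps27rt at 0.80, and Rpl29, Rps27a and Rps28 have the widest intervals.

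Among the 46 large subunit genes, 0 were called and the median log2 change was -0.01, with a range from -0.31 to 0.56. Rpl10a, part of the mobile L1 stalk near the exit site for transfer RNA, had the smallest p of this subunit. Its CPM were 68.4, 76.8 and 76.8 in saline and 84.3, 84.4 and 81.1 in LPS libraries. The LPS libraries were all above the saline ones, by 0.17 on the log2 scale (SE 0.06, adjusted p = 0.604 in edgeR). Rpl41, which encodes the shortest ribosomal protein, stood at 160, 196 and 178 CPM in saline and 223, 182 and 234 CPM in LPS libraries. LPS 2 lay among the saline values, so the groups overlapped, and the log2 change was 0.26 (SE 0.11, adjusted p = 0.696 in edgeR). Rpl34 had 31.4, 30.4 and 27.4 CPM in saline and 34.1, 31.5 and 34.4 CPM in LPS libraries. The lowest LPS library was barely above the highest saline library (log2 change 0.16, SE 0.08, adjusted p = 0.729 in edgeR).

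The large subunit genes with the smallest p in the other direction were Rpl32, Rpl30 and Rpl38, at -0.09 (SE 0.06), -0.11 (SE 0.08) and -0.15 (SE 0.11). Rpl38, known for its part in Hox translation during mouse development, had 46.5, 42.9 and 45.3 CPM in saline and 33.9, 47.4 and 40.3 CPM in LPS libraries. LPS 2 was the highest of all 6 and LPS 1 the lowest. The log2 change was -0.03 without LPS 1 and -0.27 without LPS 2. For Rpl30 it was -0.03 without LPS 1 and -0.19 without LPS 3. Rpl5 and Rpl11, which form a complex with ribosomal RNA that also binds the p53 regulator Mdm2, had log2 changes of -0.0012 (SE 0.06) and -0.03 (SE 0.06). Rpl3, near the catalytic centre, was at 308 ± 14.2 CPM in saline and 302 ± 14.1 CPM in LPS mice (SD, n = 3 each). Rpl4, which lines the exit tunnel, had the smallest SE of any member, with 446 ± 8.78 and 438 ± 11.4 CPM (SD, n = 3 each). Its log2 change was -0.02 and the 95% interval ran from -0.14 to 0.09.

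The genes of the stalk that recruits elongation factors had intervals that spanned 0. Rplp0, the base of the stalk, had 182, 182 and 184 CPM in saline and 181, 186 and 192 CPM in LPS libraries. Its log2 change was 0.03, with a 95% interval from -0.09 to 0.15. On log2(FPKM + 1) it was 0.08, and the LPS libraries, at 147 to 149 FPKM, lay above the saline libraries at 134 to 143 FPKM. Without LPS 1 it was 0.05 and without LPS 3 0.0080. Rplp1 was at -0.04 (95% interval -0.22 to 0.13) and Rplp2 at 0.03 (95% interval -0.14 to 0.21), and their groups overlapped.

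Among the 31 small subunit genes, 0 were called and the median log2 change was 0.01. Rps29, a small zinc-binding protein, had 28.4, 30.8 and 27.6 CPM in saline and 26.5, 26.1 and 25.7 CPM in LPS libraries (log2 change -0.15, SE 0.07, adjusted p = 0.735 in edgeR). Each LPS library was below each saline library, by about 1 CPM at the closest.

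Rps6, the protein that S6 kinases phosphorylate, had 198, 194 and 199 CPM in saline and 197, 193 and 215 CPM in LPS libraries. The log2 change was 0.03, with a 95% interval from -0.10 to 0.16. Rpsa, also known as the laminin receptor, was at 0.09 (SE 0.07), at 0.03 without Saline 2, at 0.14 without Saline 3 and at 0.21 on log2(FPKM + 1). Rps3, at the site where messenger RNA enters, was at 0.01 (SE 0.07), Rps14 at -0.02 (SE 0.09) and Rps19, mutated in Diamond-Blackfan anaemia, at -0.00090 (SE 0.07), or 0.17 on log2(FPKM + 1). In CPM none of these 5 genes had groups that were apart. In FPKM, Rps19 had 35.7, 32.6 and 34.2 in saline and 41.7, 36.5 and 37.3 in LPS libraries, so each LPS library was above each saline library.

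Rps27 had the largest difference of any member. It stood at 14.3, 26.8 and 15.01 CPM in saline and 4.70, 4.84 and 4.44 CPM in LPS libraries, from 545, 1071 and 571 counts and 197, 196 and 162 counts. The groups were far apart and the LPS libraries were nearly equal to each other. The means were 18.7 ± 7.00 and 4.66 ± 0.206 CPM (SD, n = 3 each). The log2 change was -2.0 (SE 0.27, adjusted p = 0.0681 in edgeR). That p lies above the threshold of 0.05, and whether it passes turned on the tool and on single libraries. The adjusted p was 2.23e-16 with DESeq2, 0.106 with limma-voom, 0.0140 with limma on log2(FPKM + 1), and 0.0319 with edgeR without its robust option. With edgeR it was 0.0356 without Saline 1, 0.000424 without Saline 2 and 0.0704 without Saline 3, and 0.272, 0.293 and 0.302 without LPS 1, 2 and 3. Over all rows, these fits called 0.26% without Saline 1, 0.302% without Saline 2, 0.246% without the robust option and 0.233% on log2(FPKM + 1). On log2(FPKM + 0.1) limma gave Rps27 an adjusted p of 0.0156 and called 0.226% of rows.

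Rps27rt went the other way. It had 17.3, 9.32 and 17.5 CPM in saline and 26.0, 25.7 and 25.1 CPM in LPS libraries, with means of 14.7 ± 4.64 and 25.6 ± 0.427 CPM (SD, n = 3 each). The LPS libraries were again nearly equal to each other and lay above all saline libraries. The log2 change was 0.80 (SE 0.24), with an adjusted p of 0.548 in edgeR and 0.0054 in DESeq2. Saline 2, the library with the most Rps27, had the least Rps27rt.

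Summed, the pair varied little. Rps27 and Rps27rt together had 31.5, 36.1 and 32.5 CPM in saline and 30.7, 30.5 and 29.6 CPM in LPS libraries. The means were 33.4 ± 2.40 and 30.3 ± 0.596 CPM (SD, n = 3 each). With near-identical rows summed, an alternative added after seeing the data, the log2 change was -0.14 (SE 0.08, adjusted p = 0.756 in edgeR). The LPS libraries still lay below the saline ones. The SD of log2 CPM within groups was 0.36 for Rps27 and 0.37 for Rps27rt, and 0.07 for their sum. In that fit, 0 members and again 41 rows (0.288%) were called.

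The division of counts between the 2 rows differed between the groups. Rps27 took 45.3%, 74.2% and 46.2% of the pair's counts in saline and 15.3%, 15.9% and 15% in LPS libraries. Exact binomial (Clopper-Pearson) 95% intervals treat each read as independent and leave out variation between mice and the assignment of shared reads. Reads were not tied to molecules, so the intervals can be too narrow even for counting error. They ran from 42.4% to 48.1% in Saline 1, 71.8% to 76.4% in Saline 2 and 43.4% to 49.1% in Saline 3. In LPS libraries they ran from 12.9% at the lowest to 18.0% at the highest. How reads that match both genes were assigned is not given in the sources used here, and its part in the result was not tested. From these counts, a change in Rps27 cannot be told apart from a change in the assignment of shared reads.

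**Figure D2:**
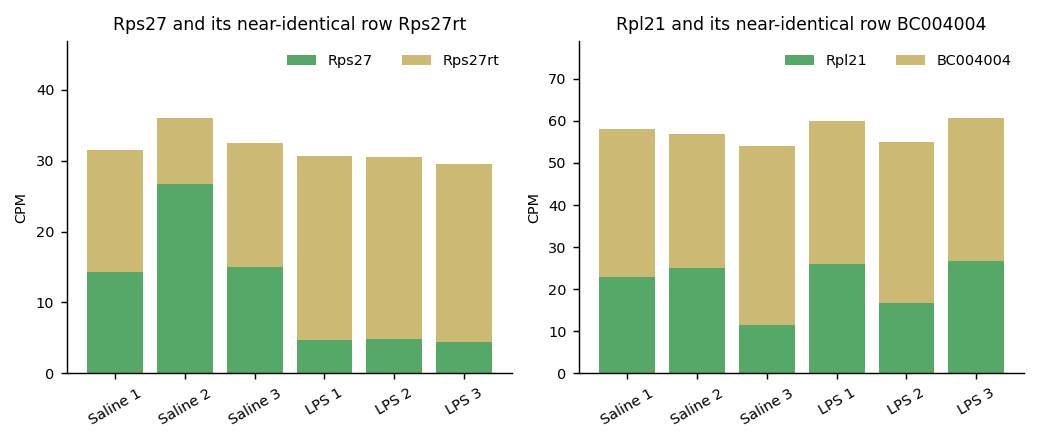
CPM (y axis, from 0) in each of the 6 libraries (x axis) for Rps27 stacked with Rps27rt, and for Rpl21 stacked with BC004004. The whole bars are nearly level, from 29.6 to 36.1 CPM for the first pair and from 54.1 to 60.8 CPM for the second, while the boundary inside the bars moves.

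Shared sequence was common among the members. An annotated copy with at least 95% identity over at least 80% of the coding sequence was found for 78 of 83 members, with a median of 5 copies and a maximum of 57 for Rpl21. Rpl8, Rps3, Rps27l and Rps19bp1 were among the 5 exceptions. For 29 members every 50-base window of the coding sequence also occurred in another annotated gene, and for 70 members at least 50% of windows did. In 10 members a copy was itself a row of the table. Most copies were no row, so where their reads went cannot be read from these counts. In 12 members an exon overlapped that of another tested gene, such as Rpl32 with Cand2 and Rps28 with Kank3, and the library kit is not stated to keep the strand.

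Rpl21 showed the same pattern as Rps27 without a difference between the groups. It had 22.8, 25.1 and 11.5 CPM in saline and 26.0, 16.7 and 26.8 CPM in LPS libraries. BC004004, whose transcript matches the Rpl21 coding sequence at 98.6% (7 mismatches in 483 bases), had 35.2, 31.7 and 42.5 CPM in saline and 33.9, 38.2 and 34.0 CPM in LPS libraries. In Saline 3 and LPS 2, the libraries with the least Rpl21, BC004004 was at its highest. The sum lay between 54.1 and 60.8 CPM in the 6 libraries, and the SD of log2 CPM within groups was 0.51 for Rpl21 alone and 0.07 for the sum. The summed log2 change was 0.06 (SE 0.06, adjusted p = 0.885 in edgeR).

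The other rows with a near-identical stretch changed less on summing. Identity was measured over the coding sequence of the member only. The rest of the other transcript was not compared, so a sum, also that of Rpl21 with BC004004, can hold reads from unrelated sequence. The within-group SD went from 0.14 to 0.08 for Rps18 with Gm10260 and Gm11361, from 0.14 to 0.08 for Rps12 with Rps12-ps3, and from 0.17 to 0.12 for Rpl9 with Rpl9-ps6. Sums of Rplp1 with Gm10073, Rplp2 with Wdr89, Rpl35 with Gm2000 and Rps7 with Gm9493 had nearly the same SD as the member alone. No sum was called, with edgeR adjusted p from 0.756 to 0.988.

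Most members varied less within groups than the median row, and a few varied far more. All rows were used for this, without matching to the members for level. The median within-group SD of log2 CPM was 0.08 over the members and 0.12 over all rows, and it was under 0.1 in 51 members. It exceeded 0.3 in 8 members, of which 6 had all their coding windows in another gene. Those 8 were Rpl29, Rps27a, Rps28, Rpl21, Rpl17, Rps27rt, Rps27 and Rpl22. Across the 83 members as points, which share the same 6 libraries, Spearman's rho of the SD was 0.05 with the percent of shared windows and -0.47 with the mean log2 CPM. The median SD was 0.08 in the 29 members with every window shared and 0.07 in the 13 members with under 50% shared.

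**Figure D3:**
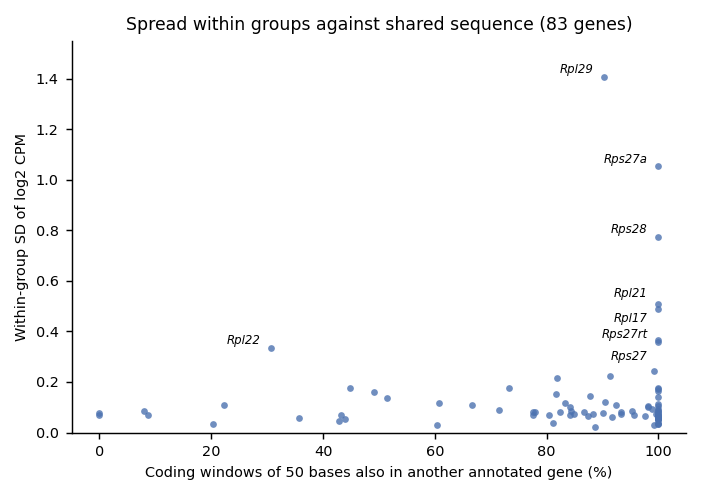
Pooled within-group SD of log2 CPM (y axis) against the percent of 50-base coding windows that also occur in another annotated gene (x axis), with 1 point per gene. Most genes lie under 0.1 at any percentage, and of the 8 named genes above 0.3 only Rpl22 has under 50% of its windows shared.

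The most variable members had wide gaps between libraries of 1 group. Rpl29 had 4.40, 50.7 and 45.8 CPM in saline, from 168, 2030 and 1741 counts, and 27.7, 24.5 and 29.3 CPM in LPS libraries. Saline 1 was far below the other 5 and the other saline libraries were above all LPS libraries. The log2 change was -0.31 (SE 0.91, adjusted p = 0.965 in edgeR), and without Saline 1 it was -0.83 (adjusted p = 0.0147 in edgeR), a call that rests on leaving out that library and stands beside 0.26% of all rows. The sign turned without Saline 2 (0.12), with limma-voom (0.31) and on log2(FPKM + 1) (0.18). Rps27a, which encodes ubiquitin fused to a small subunit protein, had 56.5, 60.0 and 60.8 CPM in saline and 69.6, 10.4 and 53.9 CPM in LPS libraries. Here LPS 2 alone was low, and the log2 change of -0.41 (SE 0.73) became 0.06 without it. Rps28 had 4.30, 18.5 and 7.31 CPM in saline and 15.2, 11.6 and 10.5 CPM in LPS libraries, so its spread was wider in the saline group. Its log2 change of 0.31 (SE 0.60) ran from -0.06 to 1.1 as each library was left out. Rpl17, beside the exit tunnel, had 19.2, 20.0 and 20.0 CPM in saline and 43.3, 16.6 and 27.5 CPM in LPS libraries, with LPS 1 the highest. No copy of Rpl29, Rps27a, Rps28 or Rpl17 was a row of the table, so no sum could be formed for them.

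Paralogs other than Rps27rt had groups that overlapped. Rpl22l1, whose level is known to be held down by Rpl22, had 3.30, 4.62 and 3.55 CPM in saline and 4.79, 4.30 and 3.78 CPM in LPS libraries, a log2 change of 0.17 (SE 0.18). Rpl22 itself had 40.9, 25.1 and 45.9 CPM in saline and 46.6, 40.9 and 42.3 CPM in LPS libraries (log2 change 0.21, SE 0.23). Saline 2 was the lowest of the 6 for Rpl22 and the highest of the saline libraries for Rpl22l1. LPS 1 was the highest of the 6 for both genes, and a relation between them was not tested. Rps27l, a p53 target, had 3.30, 3.45 and 3.02 CPM in saline and 4.05, 3.16 and 4.05 CPM in LPS libraries (log2 change 0.21, SE 0.17, adjusted p = 0.832 in edgeR). LPS 2 lay within the saline range. Rpl7l1, which acts in ribosome assembly, was at -0.09 (SE 0.09) beside -0.02 (SE 0.06) for Rpl7. Rpl36al was at 0.02 (SE 0.07) beside 0.03 (SE 0.07) for Rpl36a. The paralogs Rpl3l, Rpl10l, Rpl39l and Rps4l had no row under these symbols in the table. Their parents Rpl3, Rpl10, Rpl39 and Rps4x were at -0.03, 0.03, -0.0083 and -0.0093, each with overlapping groups.

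The members were among the most abundant transcripts by length. Their median mean FPKM, the authors' value scaled for gene length and depth, was 96.2 against 7.08 over all rows, and 81 members were above the latter. Of all rows 96.7% were below the member median. Rps15 was highest at 353 ± 10.7 FPKM (SD over 6 libraries), followed by Rpl13 at 330 ± 18.6, Rpl41 at 314 ± 47.0 and Rps24 at 291 ± 18.8 FPKM. The first 3 lie within the SD of Rpl41 of each other. At the low end were Rps20 at 12.9 ± 0.782 FPKM, Rpl7l1 at 11.4 ± 1.01, Rpl22l1 at 6.86 ± 1.11 and Rps27l at 6.41 ± 0.877 FPKM, and the last 2 do not differ beyond their SD.

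Part of that range depends on the length used. Rps20 has an annotated transcript of 3706 bases with 360 coding bases, and it ranked 80 of 83 by FPKM and 50 by CPM per coding kilobase. Rps15a, with 5179 and 393 bases, ranked 76 and 19. Across the 83 genes, Spearman's rho of FPKM with CPM per kilobase was 0.96 for annotated transcript lengths and 0.84 for coding lengths. Rpl18, chosen after its values were seen, shows that FPKM and counts can part. Its FPKM was 21.8 and 27.7 in Saline 1 and 2 but 74.2 to 82.8 in the other 4 libraries, while its CPM were 49.0, 53.7 and 61.6 in saline and 61.4, 57.7 and 58.3 in LPS libraries.

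**Figure D4:**
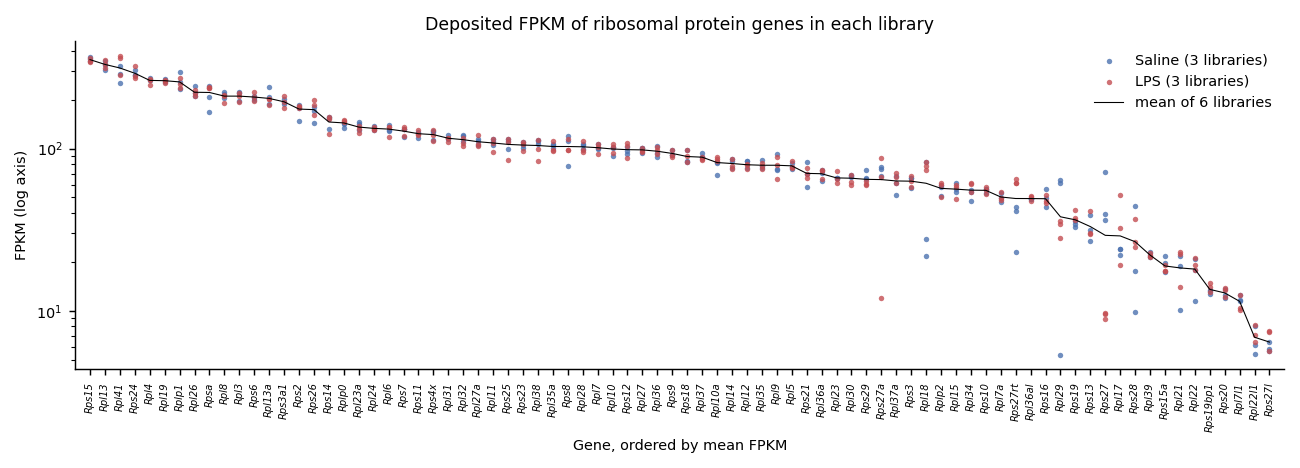
Deposited FPKM (y axis, log scale) of 80 of the 83 genes, ordered along the x axis by their mean (black line), with 1 point per library in blue for saline and red for LPS. Points of the groups lie on each other for most genes, while Rpl18, Rps27, Rpl29 and Rps27a spread widely.

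The promoter sequences of the members were described by the short words they hold. RefSeq windows from 250 bases before to 50 after the start (GRCm38.p6) were found for 63 of 83 members and 27025 genes in all. Short words were searched on both strands, and no word contains another. The pyrimidine words can still share bases with CCGGAA read on the other strand, so their percentages are not separate counts. The pyrimidine word CTTTCC, which the shared run of Rps27 and Rps27rt above begins with, occurred in 34 members (54%) and 29.3% of all genes. CTTTTCC occurred in 17.5% of members and 9.3% of genes. Both words were counted anywhere in the window, so these percentages are not shares of genes with a TOP motif. The core of ETS factor sites, CCGGAA, was in 55.6% of members and 16.7% of genes, and ATGGCG, the core of YY1 sites, in 30.2% and 10.2%. GGGCGG, the Sp1 box, was in 63.5% and 38.2%, and TATAAA in 11.1% and 15.7%. The words were chosen from what is known of these promoters, and a match is a description and not a binding site. The genes in all were not matched to the members for level or base content.

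As a share of the library, the members did not separate the treatments. Members took 0.780%, 0.834% and 0.851% of counts in saline and 0.842%, 0.787% and 0.867% in LPS libraries. The means were 0.821 ± 0.0367% and 0.832 ± 0.0410% (SD, n = 3 each), and the groups overlapped. Saline 1 and LPS 2 had the lowest shares and also the highest shares of mitochondrially encoded transcripts, 12.4% and 12.7% against 9.92% to 11.9% in the others. The part of this in the values above was not tested. Unannotated rows took 2.51%, 2.93% and 2.58% of counts in saline and 2.03%, 1.78% and 1.61% in LPS libraries, so for them the groups were apart. What this means for the member values was not tested. With mitochondrial and unannotated rows left out of the total, the shares were 0.953 ± 0.0341% and 0.961 ± 0.0409% (SD, n = 3 each). Saline 1 (0.917%) and LPS 2 (0.920%) were still the lowest, against 0.957% to 1.00% in the others. In bulk tissue, fewer cells of a type and less RNA per cell cannot be told apart.

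Single libraries differed in how many members were high. In LPS 3, 67 of 83 members (80.7%) were above their own mean over the 6 libraries, and in LPS 2 29 (34.9%) were, against 51.9% and 52.0% of all rows. In Saline 1, 2 and 3 the shares were 37.3%, 57.8% and 59.0% of members, and in LPS 1 53.0%, where those of all rows lay between 50.8% and 52.1%. The median deviation of the members lay between -0.04 in LPS 2 and 0.05 in LPS 3 on the log2 scale. These shifts of single libraries were not tested.

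**Figure D5:**
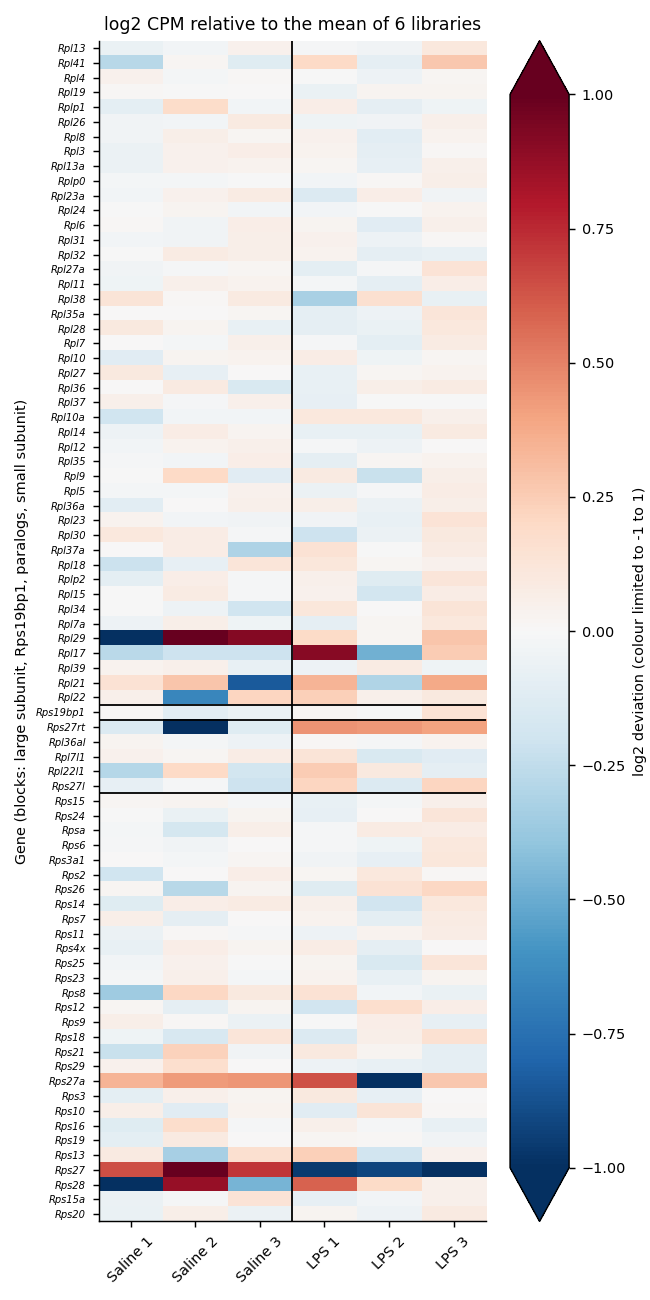
Log2 CPM of 80 of the 83 genes (rows, in blocks by class) relative to its mean over the 6 libraries (columns), with the colour limited to -1 to 1. Colours are pale in most rows, Rps27 and Rps27rt split at the line between saline and LPS, and single dark cells mark Rpl29, Rps27a, Rps28 and Rpl21.

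The rest of the translation machinery gave no call either. Of 3 further ribosomal proteins with other symbols 0 were called, and Fau overlapped between the groups. Rack1, a scaffold on the small subunit, had 124, 130 and 123 CPM in saline and 135, 131 and 138 CPM in LPS libraries, a log2 change of 0.10 (SE 0.05, adjusted p = 0.763 in edgeR). Of 22 translation factors with TOP messenger RNAs 0 were called and the median was -0.0029. Eif3m, a subunit of initiation factor 3, was at -0.16 (adjusted p = 0.696 in edgeR) and Pabpc1, the poly(A)-binding protein, at 0.13 (adjusted p = 0.711 in edgeR). Of 44 ribosome biogenesis factors 0 were called and the median was -0.0025. Nop14 was at -0.15 and Noc2l at 0.10, and in both the groups did not overlap. Of the 44, the LPS libraries all lay above saline in 2 and all below in 2, against 6.84% of all rows in each direction.

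Of 24 genes listed for the mTORC1 pathway and TOP control, 0 were called and the median log2 change was -0.02. At an unadjusted p under 0.05 in edgeR, 2 were higher and 2 lower, against 7.17% of all rows in either direction. The list holds Pdk1, a pyruvate dehydrogenase kinase, and not Pdpk1, the kinase of that pathway. Ddit4, a stress-induced inhibitor of mTORC1, had 36.9, 48.2 and 43.3 CPM in saline and 34.0, 31.8 and 29.3 CPM in LPS libraries. The groups were apart, at a log2 change of -0.43 (SE 0.10, adjusted p = 0.254 in edgeR). Rps6kb2, an S6 kinase, was at 0.23 (SE 0.08, adjusted p = 0.552 in edgeR), also with groups apart. Of the 24, the LPS libraries all lay above saline in 4 and all below in 1, against 6.84% of all rows in each direction. Of 78 mitochondrial ribosomal protein genes 0 were called and the median was -0.04, with Mrpl3 at -0.26 (adjusted p = 0.461 in edgeR) and Mrps22 at -0.30 (adjusted p = 0.588 in edgeR). The lowest of them, Mrpl53, was at -2.0 with an SE of 1.22 and overlapping groups.

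Library totals ran from 36168687 to 41270737 counts. Markers of cerebral cortex were present. The excitatory neuron gene Slc17a7 was at 1616 ± 91.9 CPM in saline and 1686 ± 43.8 CPM in LPS mice (SD, n = 3 each), and 10 of 10 excitatory markers were measured. None of the marker lists held a called gene. The median log2 change was 0.01 for 10 excitatory markers, 0.01 for 6 astrocyte, -0.0078 for 6 oligodendrocyte, 0.06 for 6 microglial and 0.06 for 6 endothelial markers. It was 0.13 for 8 inhibitory neuron markers, of which 4 had all LPS libraries above saline (6.84% of all rows), 0.30 for 6 meningeal and 0.19 for 6 striatal markers. Of 5 choroid plexus and ependyma markers 2 were measured, with a median of 0.05. These medians do not show the range within a list, and single microglial markers ran from -0.17 to 1.5. The mean log2 deviation of the meningeal markers ran from -0.76 to 0.23 in saline and from -0.21 to 0.49 in LPS libraries. The mean log2 deviation of the inhibitory markers ran from -0.10 to -0.06 in saline and from -0.01 to 0.15 in LPS libraries, and the part of these differences in the member values was not tested.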

How the data were processed

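The authors deposited raw read counts per gene and, beside them, FPKM values for 3 saline and 3 LPS libraries. TopHat2 2.1, DESeq 1.10.1 and GRCm38 are named per the submitters' processing notes; their roles, the counting program and the handling of reads that match several genes are not stated in the sources used here. Counts of all 14250 rows were tested with edgeR 4.0.16 (quasi-likelihood, robust, TMM factors, R 4.3.3), and filterByExpr removed 0 rows. Two-sided p-values were adjusted over the whole table by the Benjamini-Hochberg method. CPM used TMM-scaled totals, with a prior count of 2 in log2 values of lists. Alternatives used DESeq2 1.42.0, limma 3.58.1 (voom, and log2 of the authors' FPKM plus 1 or 0.1), other scalings, filters and each library left out. Copies were found with blastn 2.17.0 against GENCODE M21. The edgeR steps were tested on simulated data. Same-numbered samples deviated with correlations of -0.0266, 0.0252 and 0.0421, so the numbers were not taken as pairs.

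Members and lists were chosen with earlier results of these data known. Named members were the 6 with the smallest p in each direction, the 4 highest and 4 lowest by FPKM, paralogs with their parents, a panel of 12 and the 3 with the largest spread; Rpl4, Rpl17, Rpl18, Rpl21, Mrpl53 and the genes named for their copies were added after their values were seen. Single values of a few genes are not reported here; they stay in the counts and medians.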

Additional observations from a re-analysis of the deposited data

How the results depend on the processing

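Over all rows, edgeR called 41 genes; DESeq2 called 140 (60 higher, 80 lower), limma on FPKM 8 higher with either pseudocount, and a threshold of 0.1 gave 60 (23 higher). Leaving out each library gave 36 to 53 (14 to 20 higher, 22 to 35 lower). The count of called members was 0, but 1 (lower) with the replicate number as a block (Rps27, edgeR adjusted p = 0.0224, 31 rows called in all), on FPKM with either pseudocount, without the robust option and at a threshold of 0.1. It was 2 with DESeq2 (1 higher, 1 lower) and 0 to 2 with a library left out (0 to 0 higher, 0 to 2 lower). The median log2 change of the members ran from -0.019 to 0.031 with a library left out. Their share was 0.953% in saline and 0.961% in LPS without mitochondrial and unannotated rows and 2.32% and 2.33% of summed FPKM; with a library left out it ran from 0.807% to 0.842% and from 0.814% to 0.854%. No filter and filterByExpr tested the same rows. No member count was below 115, and with 3 mice per group SEs up to 0.91 left changes in Rpl29, Rps27a and Rps28 undetectable unless very large.

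For the 40 named members, 34 values with a library left out and 14 under other settings changed sign, while 203 and 419 kept sign and side of the threshold, most of them within 0.1 of 0; none of the sign changes involved a called value. On FPKM, Rps24 was at -0.0024 with either pseudocount, Rpl5 at 0.0172 and 0.0173, Rps19 at 0.166 and 0.170, and Rpl29 at 0.180 and 0.228. With library totals alone Rpl5 was at 0.0047 and Rps19 at 0.0042; with the block Rps19 was at 0.00095 and Rpl29 at 0.154; with voom they were at 0.0010 and 0.306. With a library left out, the log2 change ran from -0.058 to 0.0052 for Rps15, -0.0094 to 0.066 for Rpl13, -0.022 to 0.080 for Rps24, -0.068 to 0.0075 for Rpl3, -0.068 to 0.021 for Rpl7, -0.014 to 0.060 for Rpl10, -0.0054 to 0.39 for Rpl22, -0.010 to 0.072 for Rpl36a, -0.052 to 0.014 for Rpl39, -0.050 to 0.032 for Rps4x, -0.10 to 0.040 for Rplp1, -0.020 to 0.099 for Rplp2, -0.013 to 0.065 for Rps6, -0.038 to 0.028 for Rpl5, -0.067 to 0.0098 for Rpl11, -0.035 to 0.054 for Rps3, -0.049 to 0.046 for Rps19, -0.88 to 0.063 for Rps27a, -0.081 to 0.066 for Rps14, -0.83 to 0.12 for Rpl29 and -0.055 to 1.1 for Rps28. Without a change of sign, it ran from 0.071 to 0.33 for Rpl22l1, 0.11 to 0.20 for Rpl34, -0.18 to -0.035 for Rpl7l1 and 0.15 to 0.32 for Rps27l. Rps27a was at -0.81 and Rps28 at 0.55 with voom, and at -0.80 and 0.52 on log2(FPKM + 1). The cause was not tested.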
